A study of Mus musculus with 9 samples.

Results

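Receptor tyrosine kinases outside the ErbB family and their ligands were compared across 3 transplanted mouse mammary tumour lines. The set held 40 genes, chosen by name as receptors with their matching ligands: 23 receptors and 17 ligands of the FGF, MET, TAM, KIT, insulin-like growth factor, discoidin domain, RET and NTRK families, with 5 further receptors among the 23. All 40 were measured, out of 19938 genes on the array. The tumours were grown from NDL, Met1 or SSM2 cells, with 3 samples per line. Cultured cells were injected into both sides of the uncleared mammary fat pads of FVB/NJ females, which were 6 to 8 weeks old. Tumours were harvested once 5 to 10 mm wide. The labels give the strain of the samples as FVB/N and name no treatment, and all 3 groups share this host. By way of background, the NDL line expresses activated ErbB2 (neu), the Met1 line derives from a mouse with the polyoma virus middle T oncogene, and the SSM2 line carries hormone receptors. Each group is therefore 1 cell line, and a difference between groups is a difference between lines.

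A receptor tyrosine kinase spans the plasma membrane, and binding of its ligand brings receptor chains together so that they phosphorylate each other and recruit adaptor proteins. In the mammary gland, FGF receptor 2 is known for its part in duct growth, KIT marks luminal progenitor cells, and insulin-like growth factors support epithelial growth and survival. Stromal cells make many of the ligands, so in a tumour the receptor and its ligand may come from different cells.

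Values were log2 RMA signals. Upper quartiles of signal were 7.85, 7.84 and 8.09 in the NDL arrays, 8.02 to 8.05 in Met1 and 7.98 to 8.08 in SSM2. NDL replicates 1 and 2 stood apart in this from the other 7 arrays, so counts and calls that moved without both are given below. That fit keeps NDL replicate 3 alone. An ended call or a lower count in it therefore does not show that a call rested on replicates 1 and 2. The 25th percentile of gene means was 4.91, and 3 Y-linked genes, whose signal in female hosts is taken as background, ran from 2.61 to 3.85. The labels do not say that the samples of a line came from separate animals, so each p measures the spread between these samples, and 3 arrays per line limit the precision. Where labels name mammary tumour, the 12 epithelial markers averaged 9.85 in NDL, 6.80 in Met1 and 10.21 in SSM2, so epithelial transcripts were low in Met1.

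Of the 40 genes, 12 differed in at least 1 of the 3 contrasts at an adjusted p under 0.05 (limma, Benjamini-Hochberg over all genes), and 28 in none. Between NDL and Met1, 3 were higher and 2 lower in NDL, while 19.1% of all genes were called there (8.88% higher and 10.2% lower). Between NDL and SSM2, 5 were higher and 4 lower in NDL, with 16.9% of all genes called (9.35% higher and 7.52% lower). Between Met1 and SSM2, 3 were higher and 6 lower in Met1, with 11.8% of all genes called (7.1% higher and 4.71% lower). Called differences of at least 2-fold numbered 5, 5 and 6 among the 40, against 9.27%, 7.73% and 6.08% of all genes. The called shares of the set were 12.5%, 22.5% and 22.5%. Its median log2 difference was 0.19, 0.24 and 0.06 in these contrasts, beside 0.06, 0.09 and 0.04 over all genes. The F-test over the 3 lines called 11 of the 40 and 25.1% of all genes. In NDL against Met1 all 5 calls were receptors, and limma called 0 of the 17 ligands, of which 2 had an unadjusted p under 0.05. Against SSM2, NDL had 1 ligand higher and 3 lower, and Met1 had 0 higher and 3 lower. The counts moved with single arrays: without NDL replicate 3 they were 11 between NDL and Met1, 18 between NDL and SSM2 and 20 by the F-test. Without NDL replicate 1 the count between NDL and SSM2 was 5. Over all genes the counts moved the same way. Without NDL replicate 3 they went from 3814 to 6631 against Met1 and from 3364 to 7018 against SSM2. Without NDL replicate 1 the count against SSM2 was 1873. By direction, the genes higher in NDL than in SSM2 numbered 13 without NDL replicate 3, 2 without NDL replicate 1 or SSM2 replicate 2, and 3 without NDL replicate 2, Met1 replicate 1 or Met1 replicate 2, and those lower numbered 8 without SSM2 replicate 3. Those higher in NDL than in Met1 numbered 9 without NDL replicate 3 and 2 without Met1 replicate 3. Those higher in Met1 than in SSM2 numbered 6 without SSM2 replicate 1, 1 without Met1 replicate 1 or 2, and 2 without NDL replicate 1, Met1 replicate 3, SSM2 replicate 2 or SSM2 replicate 3. Without NDL replicates 1 and 2 together, which leaves NDL replicate 3 alone, some calls ended. Against Met1 they were those on Fgfr2 and Ddr2, with log2 differences of 2.35 and -1.71 in that fit. Against SSM2 they were those on Fgf1 (-0.81), Hgf (-1.45), Gas6 (1.42), Igf1r (0.82), Ddr1 (0.57) and Ptk7 (0.41).

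**Figure D1:**
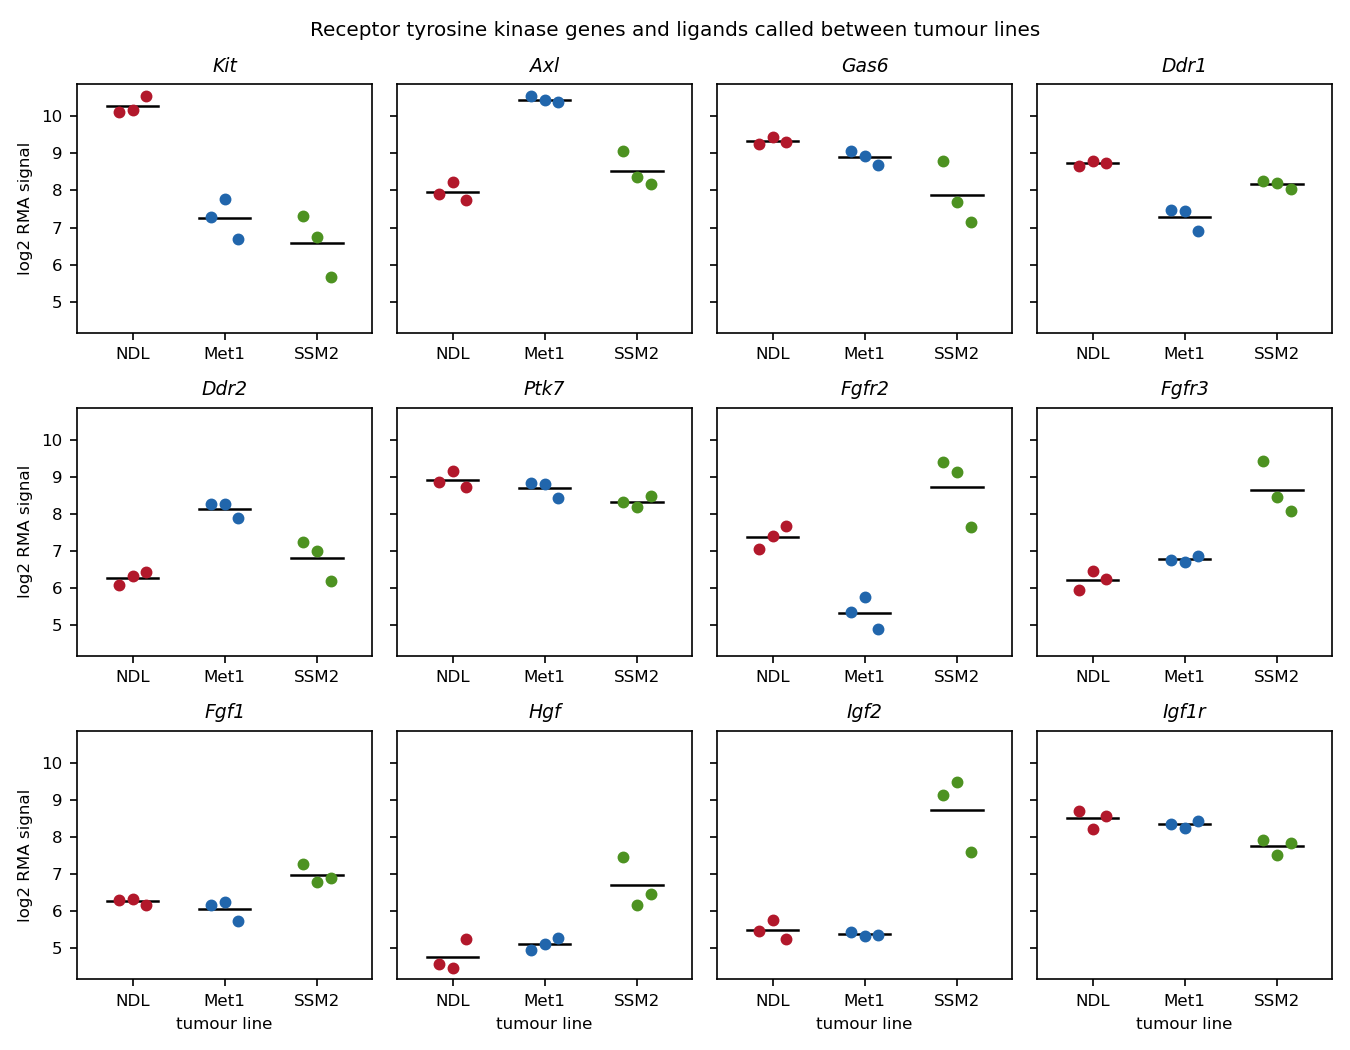
Log2 RMA signal of the 12 genes called in at least 1 contrast, in each of the 3 arrays of NDL, Met1 and SSM2 tumours (points, replicates 1 to 3 from left to right; bars, line means). Kit stood above 10 in the 3 NDL arrays only, Axl above 10 in the 3 Met1 arrays only, and Igf2 above 7 in the 3 SSM2 arrays only.

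Each line had its own leading members, taken as genes called in both contrasts of a line in the same direction. NDL was highest for 2 (Kit and Ddr1; 5.13% of all genes were highest in NDL) and lowest for 0 (3.59%), Met1 was highest for 2 (Axl and Ddr2; 4.09%) and lowest for 2 (Fgfr2 and Ddr1; 2.18%). SSM2 was highest for 4 (Fgfr3, Fgf1, Hgf and Igf2; 1.91%) and lowest for 1 (Igf1r; 2.26%). The 3 arrays of NDL and the 3 of Met1 did not overlap for 18 of the 40, against 38.2% of all genes. For NDL and SSM2 the number was 19, against 31.6%, and for Met1 and SSM2 it was 17, against 31.7%. Of these, 13, 10 and 8 were not called.

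**Figure D2:**
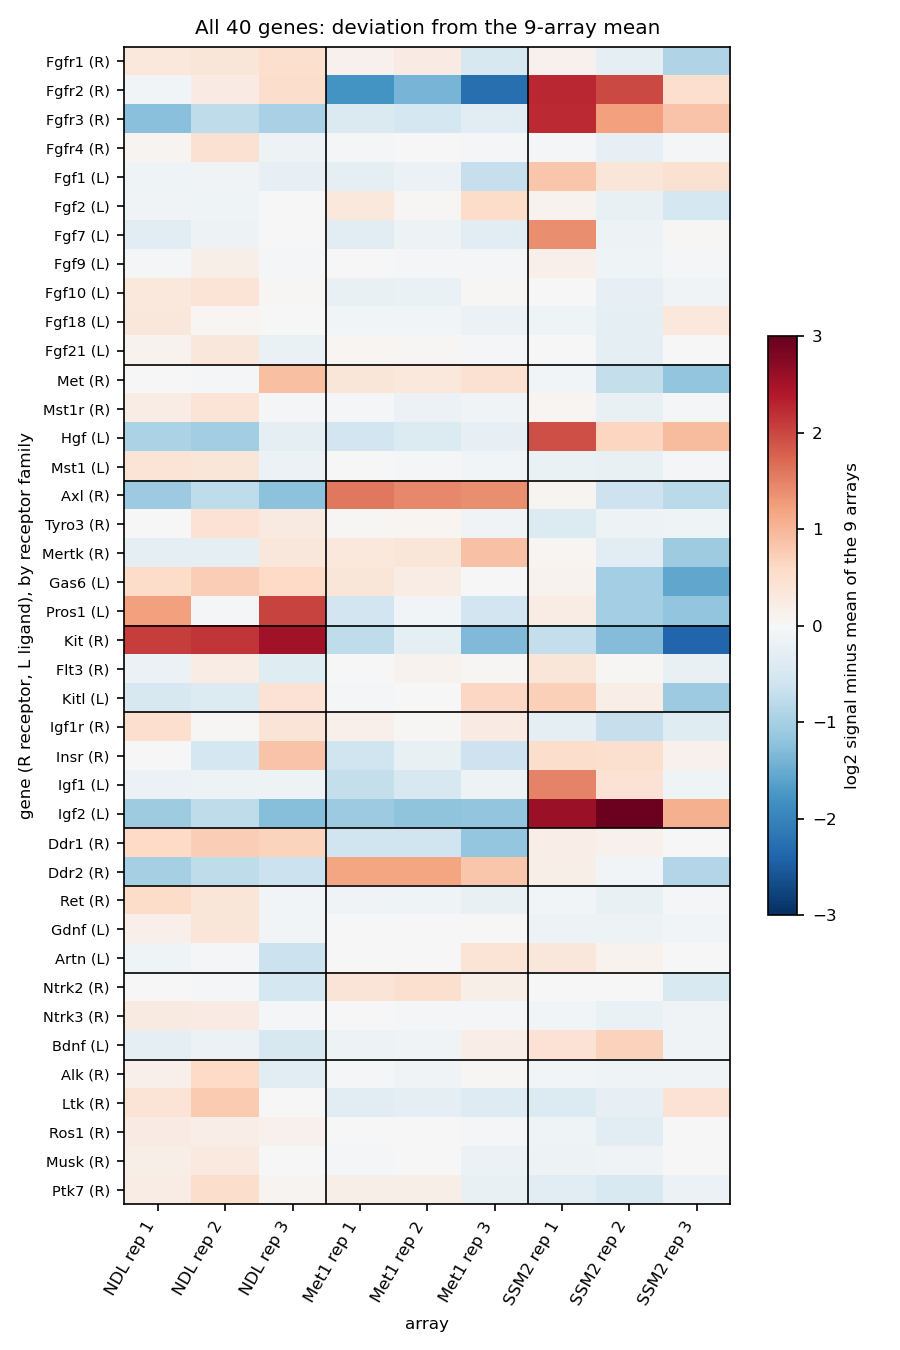
Signal of all 40 genes in the 9 arrays, as the log2 deviation from each gene's mean over the arrays (colour), with genes grouped by receptor family and marked R (receptor) or L (ligand). NDL arrays stand to the left, Met1 in the middle and SSM2 to the right, and wide deviations are seen in Kit (NDL high), Axl and Ddr2 (Met1 high), Fgfr2 (Met1 low), Igf2 and Fgfr3 (SSM2 high), and in single arrays of Pros1 (NDL replicate 3) and Hgf (SSM2 replicate 1).

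Kit, the receptor for stem cell factor, was far higher in NDL than in either other line. Its signal was 10.12, 10.18 and 10.55 in NDL, 7.28, 7.77 and 6.70 in Met1, and 7.31, 6.73 and 5.67 in SSM2. Every NDL array lay above every array of the other lines, and Met1 and SSM2 overlapped. Kit was 8.19-fold higher in NDL than in Met1 (log2 difference 3.03 ± 0.41 SE, limma adjusted p = 0.00152) and 13.1-fold higher than in SSM2 (3.71 ± 0.41 SE, limma adjusted p = 0.000669). Between Met1 and SSM2 the difference was 0.68 ± 0.41 SE and was not called (limma adjusted p = 0.399). The Kit ligand gene Kitl averaged 7.53 ± 0.50 in NDL, 7.88 ± 0.36 in Met1 and 7.62 ± 0.93 in SSM2 (SD, n = 3 each) and passed in no contrast (limma adjusted p from 0.628 to 0.897). Flt3, a receptor of the same class found on early blood and dendritic cells, averaged between 5.65 and 5.80 and passed in none. Both NDL calls on Kit held with each array left out in turn.

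Mast cells also carry Kit, and the line means of their markers did not run in the order of Kit. The 8 mast cell markers averaged 4.97 ± 0.18 in NDL, 5.41 ± 0.57 in Met1 and 5.75 ± 0.73 in SSM2 (SD, n = 3 each). Limma called 0 of the 8 in any contrast, with 0, 1 and 0 at an unadjusted p under 0.05 for NDL against Met1, NDL against SSM2 and Met1 against SSM2. Without SSM2 replicate 3, 1 was called lower in NDL than in SSM2. The array means ran from 4.83 to 5.17 in NDL, from 4.95 to 6.05 in Met1 and from 5.02 to 6.48 in SSM2, so the line with the highest Kit had the lowest mean of the list. Within SSM2 the list (6.48, 5.77 and 5.02) ran in the order of Kit (7.31, 6.73 and 5.67). In Met1, replicate 3 had the highest list mean and the lowest Kit, and in NDL it had the lowest list mean and the highest Kit. The IgE receptor subunit genes of mast cells, Ms4a2 and Fcer1a, lay under the 25th percentile of gene means in all lines. In NDL, Met1 and SSM2, Ms4a2 averaged 3.45, 3.40 and 3.52 and Fcer1a 4.24, 4.22 and 4.26. They were the only 2 of the 8 markers whose mean over all arrays lay under that percentile, so they do not stand for the list. In bulk samples such as these, fewer cells of a type and less RNA per cell cannot be told apart. Whether mast cells contributed to the Kit signal was not tested.

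The TAM receptors AXL, TYRO3 and MERTK bind GAS6 and protein S (Pros1), which bridge them to exposed phosphatidylserine on dying cells. Axl was highest in Met1, with 7.89, 8.23 and 7.75 in NDL, 10.56, 10.43 and 10.38 in Met1, and 9.06, 8.36 and 8.18 in SSM2. All Met1 arrays lay above all others, by more than 1 log2 unit, while NDL and SSM2 overlapped. In NDL the log2 difference from Met1 was -2.50 ± 0.23 SE (limma adjusted p = 0.000222), which is 5.66-fold higher in Met1. Met1 was 3.79-fold higher than SSM2 (1.92 ± 0.23 SE, limma adjusted p = 0.00124), and NDL minus SSM2 was -0.58 ± 0.23 SE (limma adjusted p = 0.115, not called). Both Met1 calls on Axl held with any 1 array left out.

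Gas6, unlike Axl, had its highest mean in NDL, though not by a called difference from Met1. It was 9.25, 9.45 and 9.30 in NDL, 9.07, 8.93 and 8.68 in Met1, and 8.80, 7.69 and 7.15 in SSM2. The NDL arrays were the highest and close together, all above both other lines, and the SSM2 arrays spread over more than 1 log2 unit. Gas6 was 2.74-fold higher in NDL than in SSM2 (1.45 ± 0.36 SE, limma adjusted p = 0.0263), a call lost when NDL replicate 1 or 2 or SSM2 replicate 2 was left out (adjusted p up to 0.0825). NDL minus Met1 was 0.44 ± 0.36 SE and Met1 minus SSM2 was 1.01 ± 0.36 SE, neither called. Without SSM2 replicate 1, Gas6 was called higher in Met1 than in SSM2, the direction of Axl (1.47, limma adjusted p = 0.00337). Array weights gave that call too. Pros1 averaged 9.95 ± 1.04 in NDL, 8.46 ± 0.29 in Met1 and 8.21 ± 0.77 in SSM2 (SD, n = 3 each), and its difference from SSM2 missed the threshold (1.75, limma adjusted p = 0.0577). The 3 NDL arrays for Pros1 were 10.11, 8.84 and 10.91, the widest spread of any of the 40 genes in NDL. Mertk, which macrophages use to clear dying cells, averaged 6.94 in NDL, 7.54 in Met1 and 6.57 in SSM2, and Tyro3 7.45, 7.21 and 6.99, with no call for either.

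Macrophage and fibroblast markers also varied between the lines. The 11 macrophage markers averaged 8.59 ± 0.33 in NDL, 9.65 ± 0.19 in Met1 and 8.95 ± 0.72 in SSM2 (SD, n = 3 each), with array means from 8.28 to 8.93, from 9.48 to 9.85 and from 8.22 to 9.65. Between NDL and Met1, 8 of the 11 were lower in NDL and 0 higher, and between Met1 and SSM2, 5 were higher and 1 lower in Met1. The 12 fibroblast markers averaged 8.30 ± 0.10 in NDL, 8.57 ± 0.31 in Met1 and 9.15 ± 0.74 in SSM2. Macrophage markers averaged highest in Met1, the line with the highest Axl, and the part of macrophages in those signals was not tested. The macrophage counts moved with single arrays, from 2 to 9 lower between NDL and Met1 (2 without NDL replicate 1, Met1 replicate 1 or Met1 replicate 3, 3 without Met1 replicate 2) and from 0 to 6 higher between Met1 and SSM2 (0 without Met1 replicate 1, Met1 replicate 3 or SSM2 replicate 2). Without NDL replicates 1 and 2 together, 0 of the 11 were called between NDL and Met1.

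The discoidin domain receptors DDR1 and DDR2 bind collagen. DDR1 is known mainly from epithelial cells and DDR2 from mesenchymal cells, and here the pair ran in opposite order across the lines. Because of that order, a RefSeq promoter of each gene (GRCm38.p6, 250 bases before to 50 after the start, written along the gene's strand) is shown. Ddr1 has 4 listed starts, of which the one shown, at chr17:35701995-35702294 on the minus strand, holds matches to 2 of the 3 motifs searched, and the other 3 hold none. That of Ddr2 lies at chr1:170088895-170089194, also on the minus strand. Capitals mark motif matches.
Ddr1: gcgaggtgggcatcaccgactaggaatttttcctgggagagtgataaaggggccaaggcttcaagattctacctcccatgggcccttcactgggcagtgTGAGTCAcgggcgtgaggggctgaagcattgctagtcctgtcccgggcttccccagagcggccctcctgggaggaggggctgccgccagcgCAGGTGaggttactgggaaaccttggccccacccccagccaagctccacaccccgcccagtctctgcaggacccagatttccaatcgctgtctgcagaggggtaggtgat
Ddr2: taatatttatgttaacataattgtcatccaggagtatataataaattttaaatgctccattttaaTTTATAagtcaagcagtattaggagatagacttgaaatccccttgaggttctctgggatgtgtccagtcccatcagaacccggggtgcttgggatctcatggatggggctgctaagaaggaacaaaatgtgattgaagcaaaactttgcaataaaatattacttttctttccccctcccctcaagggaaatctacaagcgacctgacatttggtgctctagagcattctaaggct
The motifs searched, on both strands, were the E-box CAGGTG bound by ZEB and SNAI repressors, the AP-1 site TGANTCA and the TATA box TATAAA, which do not overlap here. In the Ddr1 promoter the AP-1 match starts at position -151 and the E-box match at position -60 from the start site. In the Ddr2 promoter the match to TATAAA is on the other strand and lies at position -185 from the start site. Among 32851 RefSeq promoters of this length, 20.2% held the E-box, 7.81% the AP-1 site and 13.6% the TATA box. GC content was 62.0% in this Ddr1 promoter and 39.0% in that of Ddr2, beside a median of 52.7% over all promoters. Promoters were listed for 35 of the 40 genes, 52 in all, of which 3 held the E-box, 4 the AP-1 site and 4 the TATA box. Motifs and promoters were chosen after the expression values were seen, and a match is a string of letters, not a measured binding site.

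Ddr1 was called in all 3 contrasts, the only one of the 40 genes to be so. Its signal was 8.66, 8.81 and 8.73 in NDL, 7.46, 7.46 and 6.90 in Met1, and 8.26, 8.20 and 8.04 in SSM2. No array overlapped between any 2 lines. It was 2.75-fold higher in NDL than in Met1 (1.46 ± 0.16 SE, limma adjusted p = 0.000548) and lower in Met1 than in SSM2 (-0.89 ± 0.16 SE, limma adjusted p = 0.00846). It was 1.48-fold higher in NDL than in SSM2 (0.57 ± 0.16 SE, limma adjusted p = 0.045), a call close to the threshold. That last call ended without any 1 of NDL replicate 1 or 2, Met1 replicate 1 or 2, or SSM2 replicate 1, 2 or 3 (adjusted p up to 0.124).

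Ddr2 was 6.07, 6.31 and 6.43 in NDL, 8.26, 8.25 and 7.89 in Met1, and 7.24, 6.99 and 6.18 in SSM2. The Met1 arrays were the highest without overlap, and the lowest SSM2 array fell within the NDL range. NDL minus Met1 was -1.87 ± 0.26 SE (limma adjusted p = 0.00163), 3.65-fold higher in Met1, a call that ended without NDL replicates 1 and 2 together. Met1 was 2.52-fold higher than SSM2 (1.33 ± 0.26 SE, limma adjusted p = 0.0121), which ended without Met1 replicate 1 or 2 (adjusted p up to 0.0545). NDL minus SSM2 was -0.54 ± 0.26 SE and was not called (limma adjusted p = 0.177).

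The order of Ddr1 was that of the epithelial markers between Met1 and the other lines. All 12 epithelial markers were higher in NDL than in Met1 and all 12 lower in Met1 than in SSM2, with array means of 9.86, 9.79 and 9.90 in NDL, 7.11, 7.37 and 5.93 in Met1, and 10.16, 10.12 and 10.36 in SSM2. Met1 replicate 3 had the lowest mean of the list. It was the lowest Met1 array for 21 of the 40 genes, among them Ddr1, Ddr2, Kit and Fgfr2. The part of epithelial content in these signals was not tested. For Ddr2, the fibroblast list was highest in SSM2 and not in Met1, with 2 of 12 higher and 4 lower in NDL against Met1, and 4 higher and 3 lower in Met1 against SSM2. These counts were 0 higher and 3 lower in NDL against Met1 without NDL replicates 1 and 2 together. In Met1 against SSM2 they were 2 higher and 1 lower without Met1 replicate 1, SSM2 replicate 2 or NDL replicates 1 and 2 together, and 2 higher and 2 lower without NDL replicate 1 or Met1 replicate 3.

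**Figure D3:**
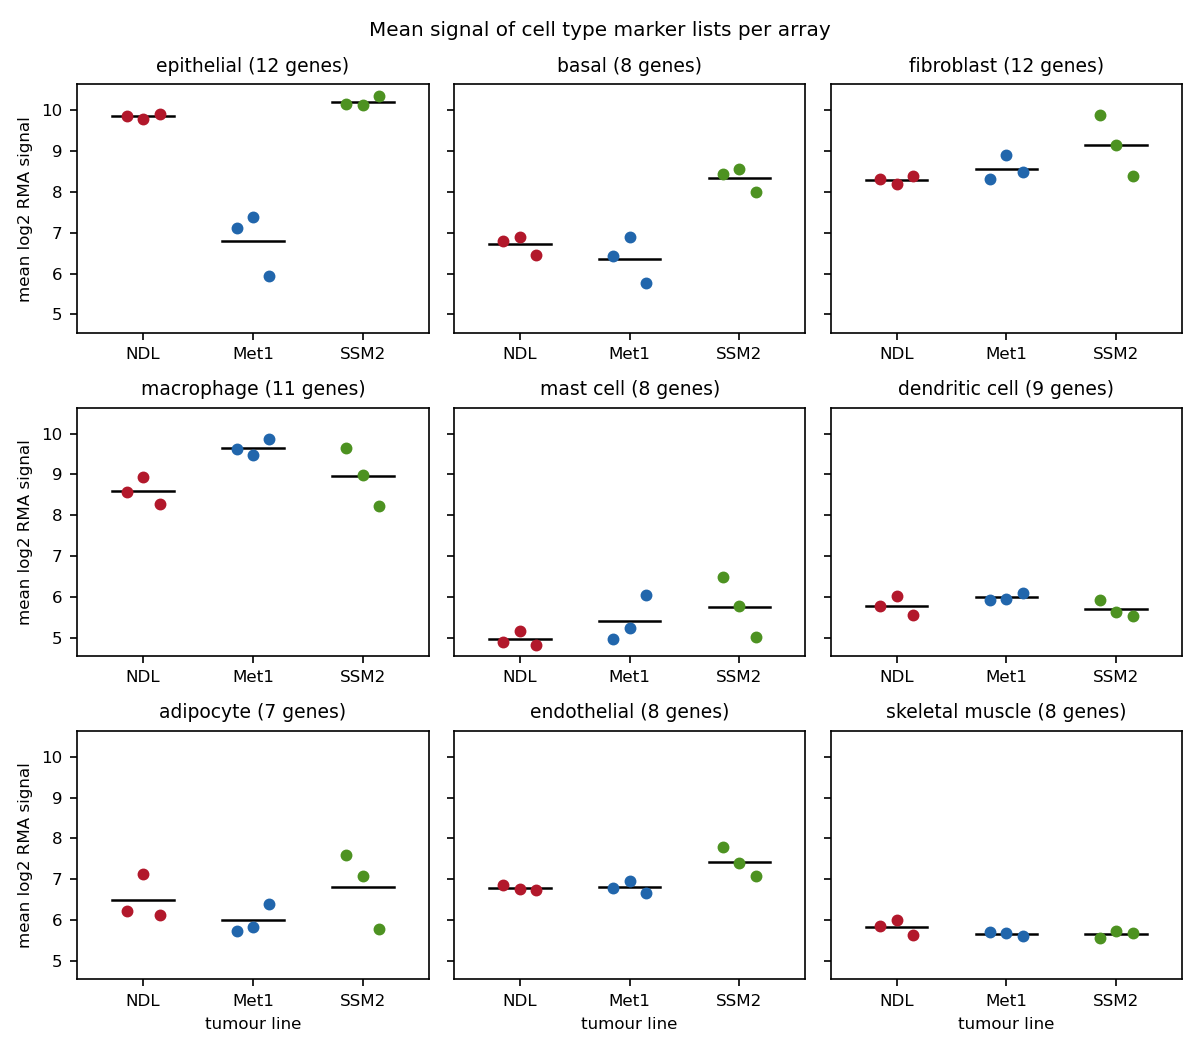
Mean log2 RMA signal of 9 lists of cell type markers in each array of NDL, Met1 and SSM2 tumours (points; bars, line means). The epithelial list lies between 5.93 and 7.37 in Met1 and above 9 in both other lines, the mast cell list is lowest in NDL, and the fibroblast list in SSM2 runs from 9.89 in replicate 1 to 8.40 in replicate 3.

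Among the FGF receptors, Fgfr3 was highest in SSM2 tumours and Fgfr2 lowest in Met1 tumours, while Fgfr1 and Fgfr4 passed in no contrast. Fgfr2 was 7.06, 7.39 and 7.68 in NDL, 5.35, 5.76 and 4.88 in Met1, and 9.41, 9.13 and 7.65 in SSM2. Met1 was lowest in every array, and 1 SSM2 array fell just within the NDL range. Fgfr2 was 4.13-fold higher in NDL than in Met1 (2.05 ± 0.44 SE, limma adjusted p = 0.0132), a call that ended without Met1 replicate 3 (adjusted p = 0.0544). In Met1 it was lower than in SSM2 by 10.6-fold (-3.40 ± 0.44 SE, limma adjusted p = 0.00187). NDL minus SSM2 was -1.35 ± 0.44 SE (limma adjusted p = 0.0696, not called), and without SSM2 replicate 3 it was called at an adjusted p of 0.00386.

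Fgfr3 was 5.94, 6.44 and 6.23 in NDL, 6.76, 6.69 and 6.86 in Met1, and 9.44, 8.44 and 8.06 in SSM2. All SSM2 arrays lay more than 1 log2 unit above the rest. The difference was -2.44 ± 0.31 SE for NDL minus SSM2 (limma adjusted p = 0.00135; 5.44-fold higher in SSM2) and -1.88 ± 0.31 SE for Met1 minus SSM2 (limma adjusted p = 0.0058; 3.68-fold higher in SSM2). Both calls held with any 1 array left out. Fgfr1 averaged 9.93 ± 0.10 in NDL, 9.51 ± 0.40 in Met1 and 9.20 ± 0.52 in SSM2 (SD, n = 3 each), and Fgfr4 lay between 5.51 and 5.74 on average.

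The 7 FGF ligands had low to middling signals, and only Fgf1, which binds all FGF receptors, passed a test. It averaged 6.26 ± 0.08 in NDL, 6.04 ± 0.27 in Met1 and 6.97 ± 0.25 in SSM2 (SD, n = 3 each), with every SSM2 array above every other. The log2 difference was -0.71 ± 0.17 SE for NDL minus SSM2 (limma adjusted p = 0.0243) and -0.93 ± 0.17 SE for Met1 minus SSM2 (limma adjusted p = 0.00923). The first of these was lost when NDL replicate 1 or 2 or SSM2 replicate 1 was left out (adjusted p up to 0.0742). Fgf7 and Fgf10, ligands of the FGFR2 form found on epithelium, passed in no contrast. Fgf7 averaged 4.97 in NDL, 4.85 in Met1 and 5.55 in SSM2, where replicate 1 had 6.52 and the others 4.97 and 5.16. Fgf10 averaged 4.95, 4.56 and 4.57, with its mean over the 9 arrays under the 25th percentile. Fgf2, Fgf9, Fgf18 and Fgf21 had line means from 5.08 to 6.56, all without a call.

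Of 13 genes that modify FGF signalling or bind FGFs (co-receptors, heparan sulphate carriers and the like), 0 were higher and 3 lower in NDL against Met1, 1 higher and 3 lower in NDL against SSM2, and 2 higher and 0 lower in Met1 against SSM2. Fgfrl1, an FGF receptor-like protein that lacks the kinase domain, was 9.20, 9.36 and 9.25 in NDL, 8.91, 8.91 and 8.91 in Met1, and 7.56, 7.23 and 7.20 in SSM2. All SSM2 arrays were lower than all others, whereas for Fgfr3 all SSM2 arrays were higher. The difference was 1.94 ± 0.12 SE for NDL minus SSM2 (limma adjusted p = 3.08e-05) and 1.58 ± 0.12 SE for Met1 minus SSM2 (limma adjusted p = 0.000161). The heparan sulphate proteoglycan gene Sdc3 averaged 8.28 in NDL, 9.91 in Met1 and 8.21 in SSM2, lower in NDL than in Met1 (limma adjusted p = 0.00222) and higher in Met1 than in SSM2 (limma adjusted p = 0.00278). Sdc2 averaged 7.69 in NDL, 9.02 in Met1 and 8.69 in SSM2, lower in NDL than in Met1 (limma adjusted p = 0.00341) and than in SSM2 (limma adjusted p = 0.0155). Counts of 3 higher and 3 lower in NDL against Met1 came without NDL replicate 3. In NDL against SSM2 the 3 lower calls were reduced to 1 without NDL replicate 2, Met1 replicate 1, Met1 replicate 2 or SSM2 replicate 1.

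MET is the receptor for hepatocyte growth factor (HGF), which is made mainly by mesenchymal cells as an inactive precursor and cut by proteases at the epithelial surface. Hgf was 4.58, 4.47 and 5.24 in NDL, 4.95, 5.10 and 5.26 in Met1, and 7.44, 6.16 and 6.46 in SSM2. SSM2 was higher in every array, and the NDL mean of 4.76 lay under the 25th percentile of gene means, so the size of that difference is uncertain. The difference was -1.93 ± 0.33 SE for NDL minus SSM2 (limma adjusted p = 0.00574; 3.81-fold higher in SSM2) and -1.58 ± 0.33 SE for Met1 minus SSM2 (limma adjusted p = 0.0166; 3.00-fold higher in SSM2). The Met1 call ended without Met1 replicate 1 or 2 (adjusted p up to 0.0694), and the NDL call without NDL replicates 1 and 2 together. Within SSM2, Hgf and the fibroblast list were both highest in replicate 1 (7.44 and 9.89), while replicate 3 had the lowest fibroblast mean (8.40) and a middle Hgf value (6.46). The macrophage, mast cell, dendritic cell, adipocyte and endothelial lists were also highest in replicate 1. The part of fibroblast content in the Hgf signal was not tested.

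The receptor gene Met leaned the other way without passing. It was 8.82, 8.74 and 9.70 in NDL, 9.16, 9.11 and 9.24 in Met1, and 8.71, 8.08 and 7.61 in SSM2. All SSM2 arrays lay below all other arrays, with differences of 0.95 for NDL minus SSM2 (limma adjusted p = 0.0753) and 1.04 for Met1 minus SSM2 (limma adjusted p = 0.0746). Without SSM2 replicate 1 both passed, with adjusted p of 0.033 and 0.0275. Mst1r, the receptor of macrophage-stimulating protein, averaged between 5.38 and 5.68, and its ligand Mst1 between 5.59 and 5.95, with no call for either.

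Genes that activate pro-HGF or inhibit that step differed mainly between Met1 and the other lines. Of 8 measured, 4 were higher and 1 lower in NDL against Met1, 0 higher and 1 lower in NDL against SSM2, and 0 higher and 5 lower in Met1 against SSM2. The median log2 difference of the list was 1.58, -0.05 and -2.26 in these contrasts. Spint1, an inhibitor of HGF-activating proteases, was 10.47, 10.55 and 10.80 in NDL, 6.74, 6.99 and 6.33 in Met1, and 9.98, 10.39 and 10.34 in SSM2. The Met1 arrays lay more than 2 log2 units below all others. The difference was 3.92 ± 0.19 SE for NDL minus Met1 (limma adjusted p = 1.24e-05) and -3.55 ± 0.19 SE for Met1 minus SSM2 (limma adjusted p = 3.39e-05). The membrane serine protease genes St14 and Tmprss2 were likewise lowest in Met1, with 3.15 ± 0.28 SE (limma adjusted p = 0.000188) and 3.43 ± 0.42 SE (limma adjusted p = 0.000962) for NDL minus Met1. For Met1 minus SSM2 they gave -2.72 ± 0.28 SE (limma adjusted p = 0.000583) and -3.50 ± 0.42 SE (limma adjusted p = 0.00137). Plau, the urokinase gene, was the 1 lower in NDL against Met1 (-1.81 ± 0.35 SE, limma adjusted p = 0.00855) and against SSM2 (-1.51 ± 0.35 SE, limma adjusted p = 0.0227); it was named after its values were seen, and its call against SSM2 ended without NDL replicate 1 or 2. The count against SSM2 was 0 higher and 3 lower without SSM2 replicate 3, and 1 higher and 1 lower without Met1 replicate 3. St14, Spint1 and Tmprss2 are themselves made by epithelial cells, and like the epithelial list they were lowest in Met1. Whether epithelial content played a part in these signals was not tested.

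**Figure D4:**
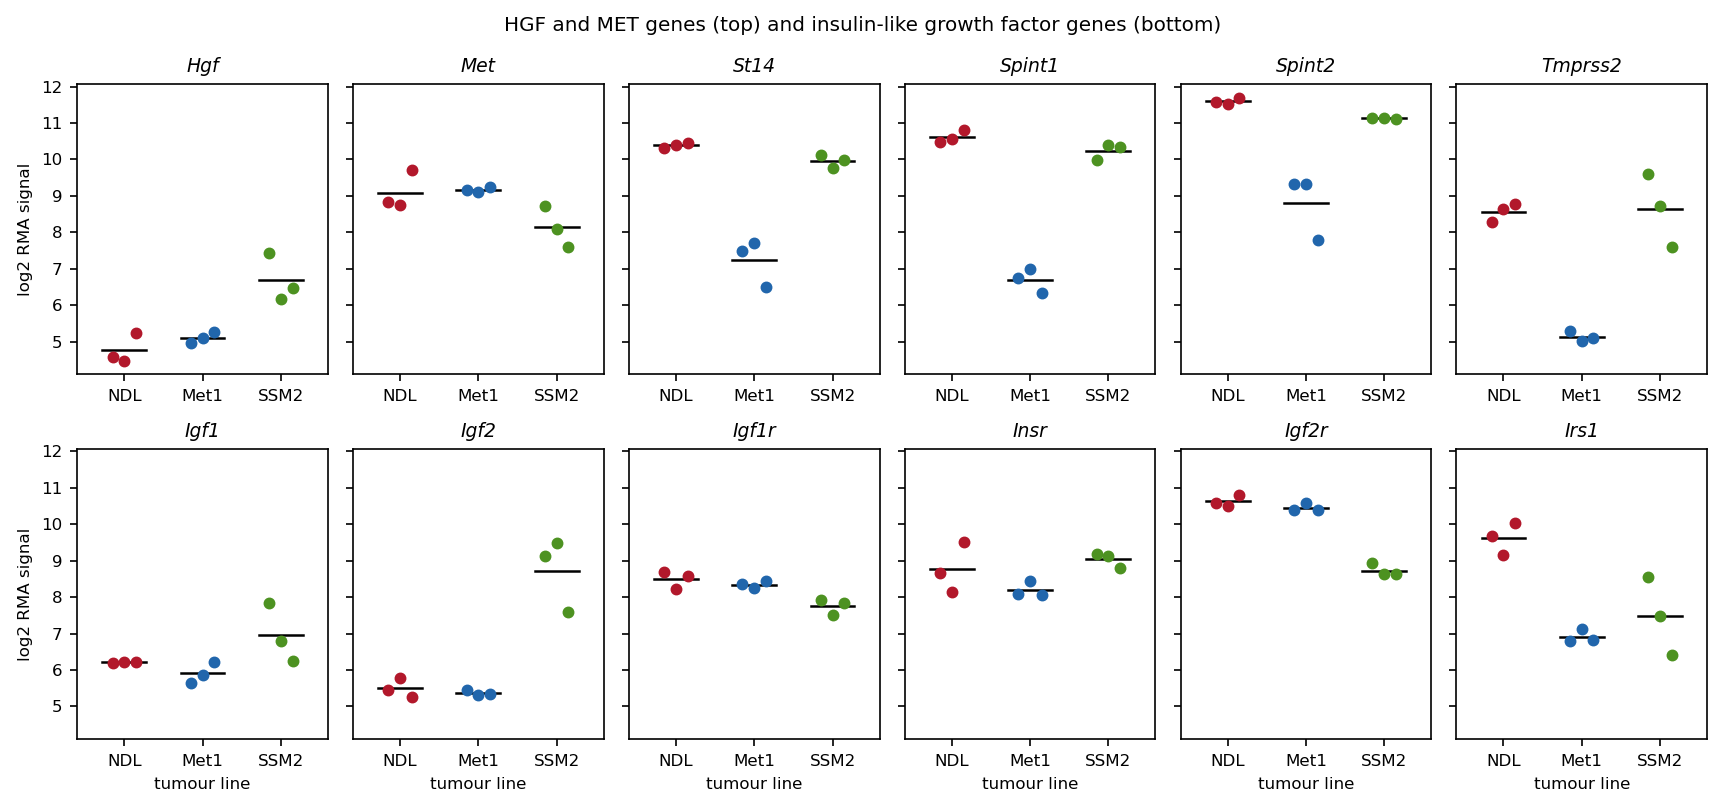
Log2 RMA signal in each array of NDL, Met1 and SSM2 tumours (points; bars, line means) for HGF, MET and genes of HGF activation in the top row, and for insulin-like growth factor ligands, receptors and Irs1 in the bottom row. Hgf and Igf2 are highest in SSM2, Spint1 and St14 are low in Met1 only, and Igf2r lies near 10.5 in NDL and Met1 and below 9 in SSM2.

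Insulin-like growth factors 1 and 2 signal through IGF1R and the insulin receptor, while IGF2R takes IGF2 up for breakdown. Igf2 had the widest difference of any ligand here. It was 5.46, 5.77 and 5.25 in NDL, 5.44, 5.32 and 5.35 in Met1, and 9.12, 9.48 and 7.59 in SSM2. All SSM2 arrays lay well above the others, with replicate 3 lowest among them, and NDL and Met1 overlapped. The difference was -3.24 ± 0.42 SE for NDL minus SSM2 (limma adjusted p = 0.00151; 9.42-fold higher in SSM2) and -3.36 ± 0.42 SE for Met1 minus SSM2 (limma adjusted p = 0.00159; 10.3-fold higher in SSM2). Both calls held with any 1 array left out, with the NDL difference between -3.81 and -2.86.

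Igf1 was 6.18, 6.22 and 6.22 in NDL, 5.64, 5.87 and 6.22 in Met1, and 7.84, 6.80 and 6.24 in SSM2. The lowest SSM2 array was level with the highest of the other lines, and the others stood above them. The difference was -0.76 ± 0.35 SE for NDL minus SSM2 and -1.05 ± 0.35 SE for Met1 minus SSM2, neither called (limma adjusted p = 0.166 and 0.0998). Without SSM2 replicate 3 both passed, with adjusted p of 0.0408 and 0.0191. NDL minus Met1 was 0.30 ± 0.35 SE (limma adjusted p = 0.596). Across the SSM2 arrays Igf1 ran in the order of the fibroblast list (9.89, 9.16 and 8.40) and of the macrophage list (9.65, 8.99 and 8.22). The mast cell, dendritic cell, adipocyte and endothelial lists ran in that order too, and the epithelial, basal and skeletal muscle lists did not. The order therefore does not single out a cell type, and the part of any of these cells was not tested.

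The receptor gene Igf1r was lowest in SSM2, the line with the most Igf2. It averaged 8.50 ± 0.25 in NDL, 8.34 ± 0.10 in Met1 and 7.75 ± 0.22 in SSM2 (SD, n = 3 each), and every SSM2 array lay below every other. The difference was 0.75 ± 0.16 SE for NDL minus SSM2 (limma adjusted p = 0.0153) and 0.59 ± 0.16 SE for Met1 minus SSM2 (limma adjusted p = 0.0472). The first ended without NDL replicate 1 (adjusted p = 0.0615), and the second without any 1 array other than NDL replicate 2 (adjusted p up to 0.146). Insr averaged 8.77 ± 0.70 in NDL, 8.19 ± 0.22 in Met1 and 9.04 ± 0.21 in SSM2 and passed in no contrast. With the mean of its 2 features it was called higher in NDL than in Met1 (0.72, limma adjusted p = 0.0485). Without NDL replicate 3 it was called lower in NDL and in Met1 than in SSM2 (limma adjusted p of 0.0467 and 0.0235).

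Of 14 genes for IGF-binding proteins and their partners, 2 were higher and 2 lower in NDL against Met1, 3 higher and 1 lower in NDL against SSM2, and 3 higher and 1 lower in Met1 against SSM2. Igf2r, named after its values were seen, was 10.59, 10.49 and 10.81 in NDL, 10.39, 10.58 and 10.39 in Met1, and 8.93, 8.63 and 8.63 in SSM2. It was lower in SSM2 without overlap, by 1.90 ± 0.13 SE from NDL (limma adjusted p = 5.52e-05) and by 1.72 ± 0.13 SE from Met1 (limma adjusted p = 0.000168). Igfals, the gene of the acid-labile subunit that carries IGF complexes, was higher in NDL than in Met1 (2.24 ± 0.34 SE, limma adjusted p = 0.00242) and than in SSM2 (1.54 ± 0.34 SE, limma adjusted p = 0.0172). Stc1, a secreted stanniocalcin, averaged 5.50 ± 0.15 in NDL, 7.50 ± 0.10 in Met1 and 5.66 ± 0.14 in SSM2 (SD, n = 3 each), lower in NDL than in Met1 (limma adjusted p = 3.41e-05) and higher in Met1 than in SSM2 (limma adjusted p = 7.99e-05). Igfbp5 was 12.59, 12.76 and 13.04 in NDL, 9.70, 10.23 and 6.00 in Met1, and 9.86, 9.41 and 7.92 in SSM2. NDL was highest in every array, but the wide spread in Met1 left an SE of 1.01 on the differences of 4.16 and 3.74. The call against Met1 (limma adjusted p = 0.0222) ended without NDL replicate 1 or 2, and that against SSM2 (limma adjusted p = 0.0385) ended in 7 of the 9 fits with 1 array left out. The list's count was 1 higher and 1 lower in NDL against Met1 without NDL replicate 1, and 2 higher and 0 lower in NDL against SSM2 without NDL replicate 1, NDL replicate 2 or Met1 replicate 1.

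RET and the NTRK receptors, known from neurons, had low signals in all lines, and limma called 0 of their 6 genes. At an unadjusted p under 0.05 were 2 of the 6 in NDL against Met1, 3 in NDL against SSM2 and 1 in Met1 against SSM2. Ret averaged 5.66 ± 0.31 in NDL, 5.23 ± 0.06 in Met1 and 5.27 ± 0.10 in SSM2 (SD, n = 3 each). Its ligands Gdnf and Artn had line means from 5.64 to 6.13. The NDL arrays of Ret were 5.93, 5.75 and 5.32, and without replicate 3, the lowest, NDL was called higher than both other lines (adjusted p of 0.0053 and 0.0066). Ntrk2 averaged 4.99, 5.52 and 5.02 in NDL, Met1 and SSM2, Ntrk3 4.75, 4.56 and 4.46, and Bdnf, the ligand of the Ntrk2 product, 5.73, 6.02 and 6.38.

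The co-receptors of these ligands varied more. Of 10 measured, 3 were higher and 4 lower in NDL against Met1, 1 higher and 1 lower in NDL against SSM2, and 3 higher and 1 lower in Met1 against SSM2. Gfra1, the co-receptor that presents GDNF to RET, was 6.14, 6.20 and 5.92 in NDL, 8.72, 8.97 and 9.26 in Met1, and 9.37, 8.21 and 7.43 in SSM2. NDL was lowest without overlap, by -2.90 ± 0.41 SE against Met1 (limma adjusted p = 0.0019) and -2.25 ± 0.41 SE against SSM2 (limma adjusted p = 0.00804), and both calls ended without NDL replicates 1 and 2 together. Ncam1, an adhesion molecule that also binds GDNF, was lower in NDL than in Met1 (-2.14 ± 0.18 SE, limma adjusted p = 0.000152) and higher in Met1 than in SSM2 (1.54 ± 0.18 SE, limma adjusted p = 0.00113). Sort1, the neurotrophin precursor receptor sortilin, was higher in NDL than in Met1 (2.31 ± 0.65 SE, limma adjusted p = 0.0395), a call that ended in 6 of the 9 fits with 1 array left out. The list counted 1 higher and 3 lower in NDL against Met1 without Met1 replicate 3, and 2 higher and 0 lower in Met1 against SSM2 without Met1 replicate 1 or SSM2 replicate 2.

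Among the 5 further receptors, Ptk7, a kinase-inactive receptor of Wnt and planar polarity signalling, averaged 8.92 ± 0.22 in NDL, 8.69 ± 0.22 in Met1 and 8.32 ± 0.14 in SSM2 (SD, n = 3 each). NDL minus SSM2 was 0.59 ± 0.16 SE (limma adjusted p = 0.0363), with no overlap of arrays, and the call ended without any 1 of NDL replicate 1 or 2, Met1 replicate 1 or 2, or SSM2 replicate 1 or 2 (adjusted p up to 0.105). Ltk averaged 6.99 ± 0.40 in NDL, 6.25 ± 0.05 in Met1 and 6.52 ± 0.45 in SSM2 and was not called, and Alk lay between 5.41 and 5.65. Ros1 and Musk, like Ntrk3, had all 3 line means under the 25th percentile. Musk belongs to the muscle synapse, and the 8 skeletal muscle markers averaged 5.83, 5.67 and 5.65 in NDL, Met1 and SSM2, with 1 called, higher in NDL than in Met1, a call lost in 8 of the 9 fits with 1 array left out.

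Adaptors and negative regulators that act downstream of many receptors were counted as a list of 26 measured genes. In NDL against Met1 3 were higher and 6 lower, in NDL against SSM2 4 higher and 2 lower, and in Met1 against SSM2 4 higher and 1 lower. Irs1, the docking protein of the insulin and IGF1 receptors, was 9.67, 9.16 and 10.03 in NDL, 6.80, 7.13 and 6.81 in Met1, and 8.55, 7.49 and 6.42 in SSM2. Every NDL array was above every other, and SSM2 spread over more than 2 log2 units. NDL was higher than Met1 by 2.71 ± 0.47 SE (limma adjusted p = 0.00502) and than SSM2 by 2.13 ± 0.47 SE (limma adjusted p = 0.0179), the second call ending without NDL replicate 1 or SSM2 replicate 2. Grb14, an inhibitory adaptor of the insulin receptor, was 6.50, 6.31 and 5.70 in NDL, 8.09, 8.31 and 7.95 in Met1, and 8.00, 8.24 and 8.16 in SSM2. NDL was lower without overlap, by -1.95 ± 0.20 SE against Met1 (limma adjusted p = 0.000426) and -1.97 ± 0.20 SE against SSM2 (limma adjusted p = 0.000468). Cblb, a ubiquitin ligase for activated receptors, was lower in NDL than in Met1 (-1.82 ± 0.18 SE, limma adjusted p = 0.000338) and than in SSM2 (-0.90 ± 0.18 SE, limma adjusted p = 0.0115), and higher in Met1 than in SSM2 (0.92 ± 0.18 SE, limma adjusted p = 0.0128). The last of these ended without Met1 replicate 2. The list counted 1 higher and 2 lower in NDL against SSM2 without NDL replicate 1. In Met1 against SSM2 it counted 2 higher and 0 lower without Met1 replicate 1, and 1 higher and 0 lower without Met1 replicate 2.

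A list of 24 measured genes held further ligands of these receptors, including collagens that bind the discoidin domain receptors, and FGF-like proteins. Of the 24, 6 were higher and 1 lower in NDL against Met1. In NDL against SSM2, 1 was higher and 1 lower, and in Met1 against SSM2, 0 were higher and 1 lower. Col1a1, a chain of the collagen that DDR1 and DDR2 bind, was 12.23, 12.13 and 12.16 in NDL, 9.38, 11.05 and 9.69 in Met1, and 12.03, 11.13 and 11.19 in SSM2. It was higher in NDL than in Met1 by 2.14 ± 0.42 SE (limma adjusted p = 0.00846), and Met1, the line with the highest Ddr2, had the lowest mean of Col1a1. Ptn, the gene of pleiotrophin, a ligand of ALK, was lower in NDL than in Met1 (-1.03 ± 0.17 SE, limma adjusted p = 0.00421). Fgf13, an FGF-like protein that stays inside the cell, was lower in NDL and in Met1 than in SSM2 (-1.79 and -1.92 ± 0.52 SE, limma adjusted p = 0.0479 and 0.0475), and each call ended in 8 of the 9 fits with 1 array left out. It was the 1 lower gene of the list in both of these contrasts, so no secreted ligand of the list was called lower there. The count in NDL against Met1 was 10 higher and 1 lower without NDL replicate 3, and 3 higher and 1 lower without NDL replicate 2, Met1 replicate 1 or Met1 replicate 3. In NDL against SSM2 it was 6 higher and 0 lower without NDL replicate 3.

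**Figure D5:**
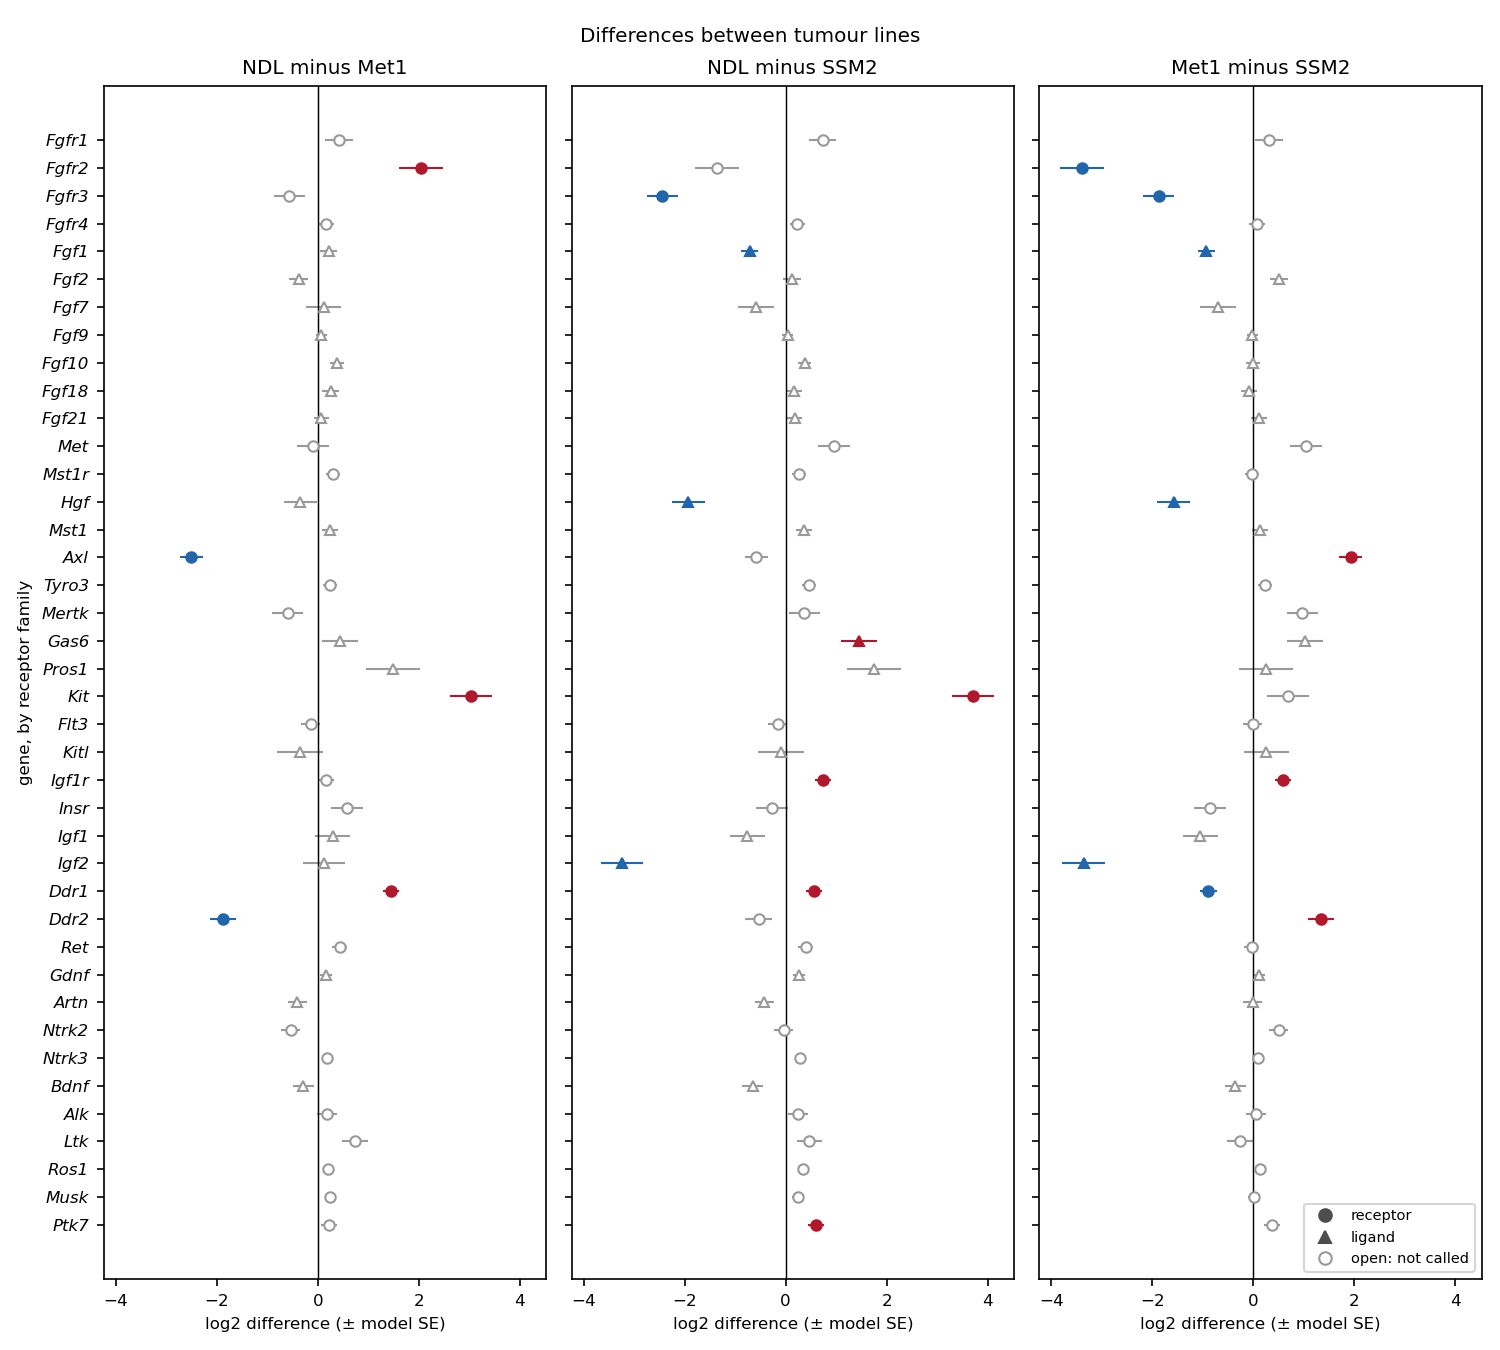
Log2 differences of all 40 genes between lines (NDL minus Met1, NDL minus SSM2, Met1 minus SSM2), with bars of ± 1 model SE, circles for receptors and triangles for ligands. Filled symbols are the called differences, 5, 9 and 9 in number, and open symbols the others, which lie mostly within 1 log2 unit of 0.

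In the fit without NDL replicates 1 and 2, which keeps NDL replicate 3 alone, further calls named above ended. Against Met1 these were Irs1, Col1a1, Ptn, Sdc2, Plau, Gfra1, Igfbp5 and Sort1, and against SSM2 Irs1, Sdc2, Plau, Gfra1, Igfbp5, Igfals, Cblb and Fgf13. List counts in NDL against Met1 were then 1 higher and 3 lower for the adaptors, 1 higher and 1 lower for the IGF-binding list, 1 higher and 0 lower for the further ligands and 0 higher and 2 lower for the co-receptors. In NDL against SSM2 they were 1 higher and 1 lower for the adaptors, 1 higher and 0 lower for the IGF-binding list, 0 and 0 for the HGF list, 1 higher and 1 lower for the FGF list and 1 higher and 0 lower for the further ligands.

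Set side by side, the line means of some receptors ran with those of a ligand and others did not. Kit was highest in NDL while Kitl passed in no contrast. Axl was highest in Met1. Gas6 was higher in NDL than in SSM2 and was not called in the contrasts with Met1. Hgf was highest in SSM2, where Met had its lowest arrays, and Igf2 was highest in SSM2, where Igf1r and Igf2r were lowest. Fgfr3 and Fgf1 were both highest in SSM2. The line means of Fgfr2 and Fgf1, and those of Insr, Igf1 and Igf2, all ran from SSM2 at the top to Met1 at the bottom. Not all steps of that order were called, and Insr and Igf1 passed in no contrast. NDL minus Met1 was not called for Fgf1 (0.22, limma adjusted p = 0.413) or Igf2 (0.125, limma adjusted p = 0.866). For Fgfr2, NDL minus SSM2 was not called. No test of a relation between a receptor and its ligand across the 9 arrays was made, since the arrays fall into 3 lines.

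The spread within lines differed. The median SD of the 40 genes was 0.24 in NDL, 0.10 in Met1 and 0.28 in SSM2, beside 0.20, 0.11 and 0.18 over all genes. In SSM2, replicate 1 was the highest array for 27 of the 40 genes, replicate 2 for 2 and replicate 3 for 11. In NDL, replicate 2 was the highest for 21 and replicate 3 the lowest for 21. The highest SD was that of Pros1 in NDL (1.04), Kit in Met1 (0.53) and Igf2 in SSM2 (1.00).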

How the data were processed

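RNA (100 ng) from snap-frozen tumours, isolated with a miRNeasy FFPE kit, was hybridised to Affymetrix Mouse Gene 1.0 ST arrays, 1 per sample, per the labels' protocols. The deposited values are log2 signals made by the authors with RMA (oligo 1.40.2, per the submitters' processing notes), which corrects background, normalises by quantiles and summarises probes. No counts, depths or scan dates were given in the sources used here.

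Of 35556 features, 21789 carried 1 gene symbol, 1621 several and 12146 none; 21698 symbols were updated or matched through RefSeq and 91 were kept. For 999 genes with more than 1 feature, 1 of the set among them (Insr), the feature with the highest mean was used, which left 19938 genes. The log2 values were fitted with limma's lmFit and eBayes, without trend (limma 3.58.1 under R 4.3.3; tables were handled in data.table, version 1.17.8), over the 9 arrays (6 residual degrees of freedom, 2.42 prior), with 2-sided contrasts, Benjamini-Hochberg adjustment over the 19938 genes and calls at an adjusted p under 0.05. A log2 difference is the first line minus the second. The procedure was tested on simulated data.

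Genes given array by array were Axl, Kit, Igf1 and members called with at least 2-fold difference; array values of Met, Pros1, Ret and Fgf7 were added after their values were seen. The other lists gave up to 3 called genes with the largest differences. The members and lists were chosen with earlier results of these data known. Alternatives were other scalings, filters on mean signal, trend with robust fitting, array weights, the mean of features, a minimum fold of 1.5, a replicate block, 2 lines alone and arrays left out. Figures used Python 3.11.15, matplotlib 3.10.9 and pandas 2.3.3.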

Additional observations from a re-analysis of the deposited data

How the results depend on the processing

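No called difference of the 40 genes changed sign under any alternative run. With 1 array left out at a time, the number called ran from 4 to 11 between NDL and Met1 (5 as reported), from 5 to 18 between NDL and SSM2 (9), from 6 to 12 between Met1 and SSM2 (9) and from 9 to 20 by the F-test (11); the highest counts of the first 2 and of the F-test came without NDL replicate 3. Over all genes, leaving out 1 array gave 2371 to 6631, 1873 to 7018 and 1360 to 2754 calls (3814, 3364 and 2356 as reported). Array weights gave 8, 5 and 16 in the 3 contrasts, and 4166, 2902 and 4007 over all genes. A minimum fold of 1.5 gave 4, 3 and 3, and 871, 644 and 542 over all genes. Leaving out NDL replicates 1 and 2 together kept NDL replicate 3 alone, and the differences whose calls then ended are given above. Equal medians gave 5, 11 and 10, and cyclic loess 6, 11 and 8, ending only the call on Igf1r between Met1 and SSM2; over all genes the median NDL minus SSM2 difference was 0.09 as deposited, 0.13 with equal medians and close to 0 with cyclic loess. The causes were not tested.

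Replicate numbers did not pair the samples: deviations of same-numbered arrays correlated from -0.35 to 0.29. With the replicate number as a block, 6, 7 and 10 genes were called in the contrasts and 12 by the F-test, and the calls on Ddr1 and Ptk7 between NDL and SSM2 ended. Calls on Kit, Axl, Igf2 and Fgfr3, on Ddr1 and Ddr2 between NDL and Met1, on Hgf between NDL and SSM2, and on Fgfr2, Fgf1 and Ddr1 between Met1 and SSM2 held with any 1 array left out. RMA signals near background limit the size of differences in Hgf, and signal does not give the number of transcripts.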
